A study of Mus musculus with 12 samples.

Results

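The 10 genes described here encode the hormones of the pancreatic islet and proteins of the granules and glucose-handling machinery of islet cells. They were taken by symbol from the deposited table of counts per gene: Ins1, Ins2, Gcg, Sst, Ppy, Iapp, Chga, Chgb, Pcsk2 and G6pc2. All 10 were found among the 46095 genes of the table, and all 10 held enough counts to be tested. The table covers RNA sequencing of whole pancreas from 12 mouse samples at postnatal day 56. The WT group holds 6 of them, from wild type C57BL/6J animals, and the AMKO group the other 6, from Axl-/-Mertk-/- animals, which by this genotype lack the receptor tyrosine kinases AXL and MERTK. Libraries are numbered within a group as the labels number them. Every sample, WT and AMKO alike, had acute pancreatitis from caerulein, a cholecystokinin analogue that overstimulates acinar cells, given intraperitoneally at 100 µg/kg each hour for 10 injections, with killing at 12 h after the first. For AMKO animals no strain background is stated in the labels, so background and loss of the receptors cannot be told apart. No untreated pancreas was analysed here. The labels do not say that replicates were separate animals, so the p-values measure the spread between these samples, which may be technical.

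Islets are small clusters of endocrine cells scattered through the acinar tissue of the pancreas. Beta cells make insulin and release it with islet amyloid polypeptide when glucose is high, alpha cells make glucagon, delta cells make somatostatin, which restrains both, and PP cells make pancreatic polypeptide. All of them cut prohormones with convertases and pack the products into dense-core granules with chromogranins. Islet RNA is a trace in a whole pancreas that is mostly acinar cells, and a piece of tissue can hold more or fewer islets.

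The positions are those of the mouse build GRCm38, the assembly that mm10 names. The insulin genes lie at chr19:52264297-52265476 on the plus strand (Ins1) and chr7:142678656-142743381 on the minus strand (Ins2). Iapp lies at chr6:142298423-142303961 on the plus strand and overlaps Slco1a5 on the other strand, so its counts are uncertain, because the labels do not state whether counting used strand. Gcg (chr2:62474530-62483650, minus), G6pc2 (chr2:69211073-69227841, plus), Chgb (chr2:132781278-132795079, plus) and Pcsk2 (chr2:143546156-143816285, plus) share chromosome 2 with Mertk. Their distances from Mertk are 3.98 Mb for Chgb, 14.7 Mb for Pcsk2, 59.5 Mb for G6pc2 and 66.2 Mb for Gcg. Pcsk2 also overlaps 2 antisense genes, Pcsk2os1 and Pcsk2os2, so its counts are uncertain in the same way. Sst lies at chr16:23889573-23890958 (minus), Ppy at chr11:102099930-102101319 (minus) and Chga at chr12:102554969-102565028 (plus). No member had a near-identical copy among the annotated transcripts, at 95% identity or more over at least 300 bases. Ins1 and Ins2 transcripts aligned to each other over 453 bases at 89.2% identity.

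Stretches before the start sites are shown for members that the results below set side by side. Whether these stretches bear on how the genes varied together between libraries was not tested. A RefSeq (GRCm38.p6) transcript start site was at hand for 9 of the 10 members, all but Ins2. The 250 bases before each were searched on both strands for 3 words: GCCATCTG, the E-box of insulin genes; TAAT, the core that homeodomain factors such as PDX1 bind; and TGACGTCA, the cAMP response element. Capitals mark matches to these words on either strand, so TAAT on the other strand reads ATTA. The lines give Ins1 (chr19:52264047-52264296, plus), Gcg (chr2:62483654-62483903, minus), Iapp (chr6:142298175-142298422, plus), and the cAMP response elements with 8 bases on each side of Sst (chr16:23890877-23890900, minus) and Chgb (chr2:132781562-132781585, plus). The Iapp line holds 248 bases and leaves out the last 2 bases searched, which lie within the gene position given above.
Ins1 promoter: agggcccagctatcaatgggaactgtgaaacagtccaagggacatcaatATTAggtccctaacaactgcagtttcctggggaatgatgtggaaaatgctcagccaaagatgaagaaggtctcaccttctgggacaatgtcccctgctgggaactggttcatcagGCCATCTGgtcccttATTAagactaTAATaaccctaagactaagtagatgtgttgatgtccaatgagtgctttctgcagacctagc
Iapp promoter: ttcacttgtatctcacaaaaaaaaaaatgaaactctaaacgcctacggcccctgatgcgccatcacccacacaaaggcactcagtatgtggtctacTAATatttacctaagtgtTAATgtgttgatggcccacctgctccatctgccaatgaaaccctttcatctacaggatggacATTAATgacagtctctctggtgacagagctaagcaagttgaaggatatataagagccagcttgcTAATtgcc
Gcg promoter: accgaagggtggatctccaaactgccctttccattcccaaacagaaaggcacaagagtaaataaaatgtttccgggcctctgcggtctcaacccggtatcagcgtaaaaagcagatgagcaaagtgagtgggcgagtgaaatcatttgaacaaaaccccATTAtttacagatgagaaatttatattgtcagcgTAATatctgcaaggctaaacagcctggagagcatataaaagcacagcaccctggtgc
Sst element: tccttggcTGACGTCAgagagaga
Chgb element: ctgctccgTGACGTCAgggctgag
The E-box word stood in the Ins1 stretch, 86 bases before the start, and in no other member searched, against 1.11% of 32851 such stretches of all genes. Ins2 was not searched, so whether it holds the word is not known here. The TAAT word was in 6 of the 9 members with a stretch, against 54.9% of all stretches. The cAMP response element was in Sst, 48 bases before the RefSeq start, and Chgb, 72 bases before it, against 1.55% of all stretches. The gene positions above come from GENCODE, whose Sst and Chgb genes begin further upstream than the RefSeq starts. Both elements therefore lie inside the GENCODE genes, as do 114 of the 250 bases searched for Sst and all 250 for Chgb. A match describes the letters only.

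Library totals ran from 10668637 to 15184371 counts, and 18548 to 20596 genes had a count in a library. AMKO was compared with WT in edgeR by the quasi-likelihood test, adjusted over the 13743 genes tested by the Benjamini-Hochberg method. In all, 794 genes (5.78%) were called at an adjusted p under 0.05, 331 higher in AMKO (2.41%) and 463 lower (3.37%). The number of calls over all genes was 524 without WT 2, 505 without WT 4, 421 without AMKO 2 and 411 without AMKO 3. It rose to 1121 without AMKO 1 and to 1140 without AMKO 5. Libraries also stood apart in markers of other cells, and those values are given beside the islet results.

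No islet gene of the 10 differed between genotypes by this test, against 5.78% of all genes called in either direction, 2.41% higher and 3.37% lower. In the edgeR fit none of the 10 reached an unadjusted p under 0.05, and DESeq2 and limma voom also called 0. The fitted difference was above 0 (higher in AMKO) for 9 genes and below 0 for G6pc2, with a median log2 difference of 0.44 against -0.002 for all genes tested. Adjusted p-values ran from 0.347 (Gcg) to 0.846 (Ins1). Values of the 2 genotypes overlapped for all 10 genes, a count that was not set beside the share over all genes tested. The standard errors of the log2 differences had a median of 0.45 for the 10 genes and 0.14 for all genes tested. The 95% intervals of the 10 fold changes all held 1-fold and together reached from 0.465-fold (G6pc2) to 7.24-fold (Gcg), so the missed p-values do not show equal levels. In bulk tissue, fewer cells of a type and less RNA per cell cannot be told apart.

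**Figure D1:**
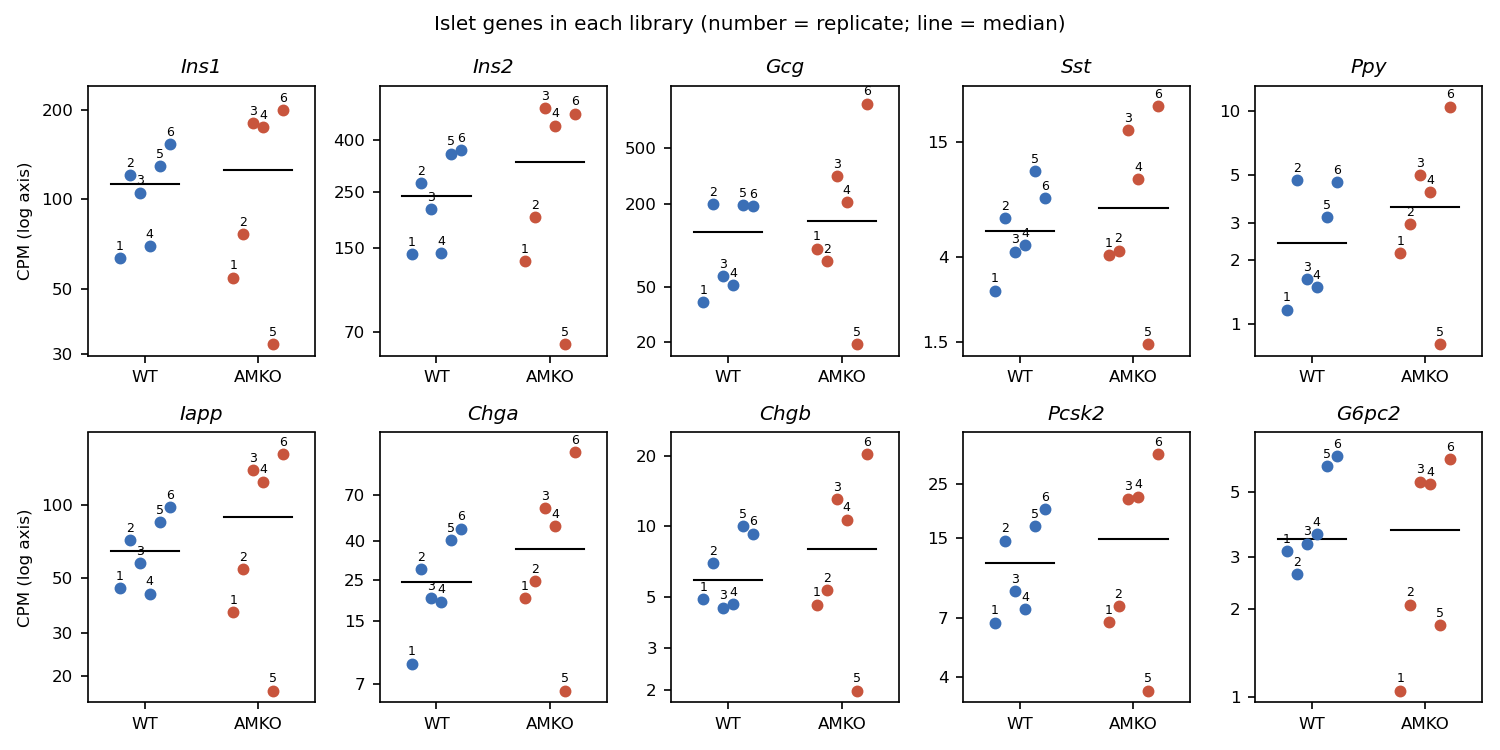
Level of each of the 10 islet genes in every library, in CPM (counts scaled to a common library depth) on a log axis, with WT in blue and AMKO in red. Numbers are replicate numbers and lines are medians; AMKO 5 is the lowest of the 12 libraries for 9 genes, AMKO 6 the highest for 8, and the genotypes overlap in every panel.

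None of the beta cell products passed the test, and for each of them the AMKO libraries spread more widely than the WT libraries. Levels are given as CPM, counts scaled to a common library depth. Ins2, the insulin gene that most resembles that of other mammals, ran in WT from 142 CPM (WT 1) through a median of 241 to 364 CPM (WT 6). The AMKO libraries reached both lower and higher, from 62.8 CPM (AMKO 5) through a median of 327 to 532 CPM (AMKO 3). AMKO 3, 4 and 6 lay above every WT library, AMKO 1 and 5 lay below every WT library, and AMKO 2 lay among them. Mean Ins2 was 247 ± 98.4 CPM in WT and 315 ± 207 CPM in AMKO (SD, n = 6 each), and the log2 difference of 0.35 (SE 0.45) did not pass the edgeR test (adjusted p = 0.693). It was 0.13 without AMKO 3 and 0.58 without AMKO 5.

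Ins1, the second insulin gene of rodents, had a WT range of 63.3 CPM (WT 1) to 153 CPM (WT 6) with a median of 113. In AMKO it ran from 32.5 CPM (AMKO 5) through a median of 126 to 200.1 CPM (AMKO 6). The same 3 AMKO libraries lay above WT and the same 2 below it as for Ins2. The Ins1 means were 106.9 ± 35.1 CPM in WT and 119.8 ± 73.4 CPM in AMKO. The log2 difference was 0.16 (SE 0.39, 95% interval -0.68 to 1.0, adjusted p = 0.846 in edgeR), and it turned to -0.039 without AMKO 6 and was 0.38 without AMKO 5. Since the transcripts of the insulin genes are alike in part and the labels give no rule for shared reads, the split of reads between Ins1 and Ins2 is uncertain.

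Iapp, which encodes the amyloid polypeptide released with insulin, followed the insulin genes library by library. Its WT libraries ran from 43.3 CPM (WT 4) through a median of 64.7 to 97.8 CPM (WT 6), and its AMKO libraries from 17.4 CPM (AMKO 5) through 89.5 to 161 CPM (AMKO 6). AMKO 3, 4 and 6 were again above all WT libraries and AMKO 1 and 5 below them. The log2 difference of 0.40 (SE 0.43) had an adjusted p of 0.630 in edgeR, and it was 0.15 without AMKO 6 and 0.64 without AMKO 5.

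G6pc2 encodes the islet glucose-6-phosphatase, which returns glucose phosphate to glucose in beta cells. It was the one member with a fitted value below 0, and it rested on few counts (17 to 100 a library). WT levels ran from 2.63 CPM (WT 2) through a median of 3.47 to 6.65 CPM (WT 6), and AMKO levels from 1.05 CPM (AMKO 1) through 3.71 to 6.49 CPM (AMKO 6). AMKO 1, 2 and 5 were below every WT library and the other AMKO libraries were within the WT range. The log2 difference was -0.22 (SE 0.41, 95% interval -1.10 to 0.66, adjusted p = 0.795 in edgeR). It was -0.45 without AMKO 6 and -0.01 without AMKO 1, and without both AMKO 1 and AMKO 5 it was 0.20.

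Gcg, which encodes glucagon, had the largest fitted difference of the 10 genes and the widest spread. In WT it ran from 39.1 CPM (WT 1) through a median of 126 to 199 CPM (WT 2), with WT 2, 5 and 6 at 191 CPM or more and the other WT libraries at 60.2 CPM or less. In AMKO it ran from 19.5 CPM (AMKO 5) through a median of 149.9 to 1047 CPM (AMKO 6). AMKO 6 stood far above the next libraries, AMKO 3 (314 CPM) and AMKO 4 (205 CPM), which were above the WT range as well. The means were 122 ± 79.3 CPM in WT and 293 ± 384 CPM in AMKO. The log2 difference of 1.26 (SE 0.75, 95% interval -0.34 to 2.86) had an adjusted p of 0.347 in edgeR. Without AMKO 6 the difference was 0.22, and without AMKO 5 it was 1.53 (adjusted p = 0.172).

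Sst, the delta cell hormone somatostatin, rested on 20 to 209 counts a library. WT libraries held 2.71 CPM (WT 1) to 10.7 CPM (WT 5) with a median of 5.41, and AMKO libraries 1.47 CPM (AMKO 5) to 22.6 CPM (AMKO 6) with a median of 7.03. AMKO 3 and AMKO 6 exceeded the WT range and AMKO 5 fell short of it. The log2 difference was 0.70 (SE 0.53, adjusted p = 0.475 in edgeR), and 0.29 without AMKO 6.

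Ppy, which encodes pancreatic polypeptide, had the lowest counts of the hormones (11 to 97 a library). Its WT levels were 1.17 CPM (WT 1) to 4.75 CPM (WT 2) with a median of 2.40, and its AMKO levels 0.807 CPM (AMKO 5) to 10.5 CPM (AMKO 6) with a median of 3.55. Only AMKO 3 and AMKO 6 were above the WT range and only AMKO 5 was below it. The log2 difference of 0.57 (SE 0.51) had an adjusted p of 0.552 in edgeR, and it was 0.10 without AMKO 6.

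The granule proteins and the convertase repeated this order of libraries. Chga, chromogranin A, a core protein of dense-core granules, ran from 8.94 CPM (WT 1) through a median of 24.1 to 46.5 CPM (WT 6) in WT. In AMKO it ran from 6.45 CPM (AMKO 5) through a median of 36.2 to 118 CPM (AMKO 6). AMKO 3, 4 and 6 were above the WT range and AMKO 5 alone was below it. The log2 difference of Chga was 0.75 (SE 0.54, 95% interval -0.41 to 1.92, adjusted p = 0.445 in edgeR). It was 0.23 without AMKO 6 and 1.0 without AMKO 5 (adjusted p = 0.201).

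Chgb, chromogranin B, the second granule protein, ran from 4.48 CPM (WT 3) through a median of 5.91 to 9.996 CPM (WT 5) in WT and from 1.98 CPM (AMKO 5) through 8.01 to 20.4 CPM (AMKO 6) in AMKO. Pcsk2, the convertase that cuts proglucagon and finishes proinsulin, ran from 6.72 CPM (WT 1) through 11.8 to 19.7 CPM (WT 6) in WT and from 3.52 CPM (AMKO 5) through 14.8 to 33.2 CPM (AMKO 6) in AMKO. For both genes AMKO 3, 4 and 6 were above every WT library and AMKO 5 was below every one. The log2 differences were 0.47 (SE 0.44, adjusted p = 0.573 in edgeR) for Chgb and 0.34 (SE 0.46, adjusted p = 0.711) for Pcsk2. Without AMKO 6 they were 0.09 for Chgb and near 0 for Pcsk2, and without AMKO 5 they were 0.70 and 0.57.

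**Figure D2:**
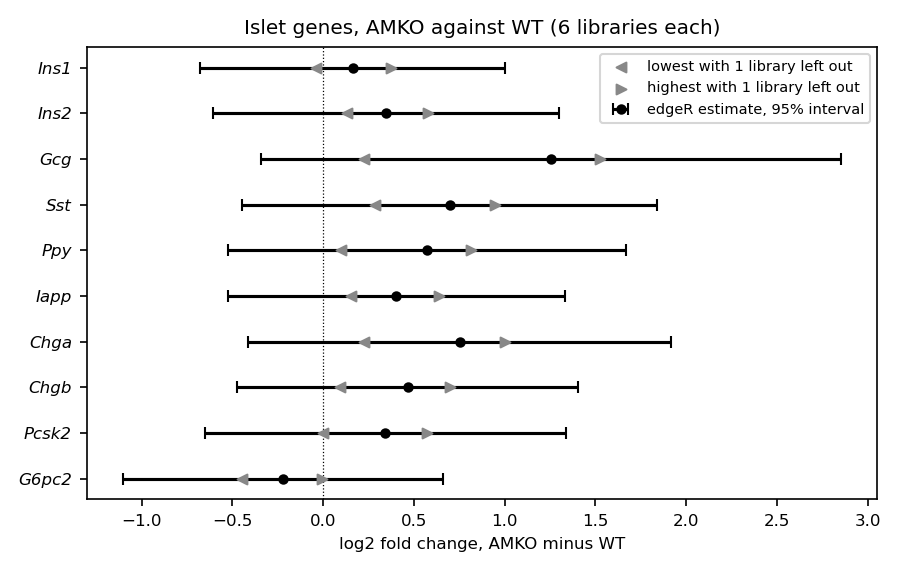
Log2 fold change of each islet gene, AMKO minus WT, from edgeR over 6 libraries a genotype, with 95% intervals as bars. Triangles give the lowest and the highest value when 1 library is left out; all 10 intervals cross 0, and Gcg moves from 1.26 to 0.22 without AMKO 6.

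Libraries of one genotype differed widely in these genes. Between the lowest and the highest WT library the 10 genes differed 2.23-fold (Chgb) to 5.20-fold (Chga). Between AMKO libraries they differed 6.16-fold (Ins1) to 53.7-fold (Gcg). The SD of log2 CPM within a genotype was larger in AMKO than in WT for 10 of 10 genes, whereas this held for 57.7% of all genes tested. These 10 genes vary together, so they are not 10 independent observations. Set beside genes of like abundance, within 0.5 log2 CPM, the pooled within-genotype SD of the members stood at the 92.5th percentile (G6pc2) to the 100th (Gcg). Ins2, for example, had a pooled SD of 0.98 log2 units against a median of 0.15 for 343 genes of like abundance.

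The summed CPM of the 10 genes put the libraries in order. In WT the sums were 317, 724, 479, 348, 848 and 901 for WT 1 to 6. In AMKO they were 358, 453, 1287, 1059, 148 and 2126 for AMKO 1 to 6. AMKO 5 was the lowest of all 12 and AMKO 6 the highest, so both extremes came from one genotype. As a share of all counts the 10 genes made up 0.0617 ± 0.0276% in WT and 0.0846 ± 0.0627% in AMKO (SD, n = 6 each).

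Genes of different islet cell types varied together between libraries. The relation was computed for 5 pairs over the 12 libraries on log2 CPM, and the 2 values of a point share their library and its scaling. Iapp followed Ins2 with Pearson r = 0.992 (permutation p = 2e-05, Benjamini-Hochberg p = 2.5e-05) and Spearman rho = 0.986 (permutation p = 2e-05, adjusted 5e-05). A permutation p of 2e-05 is the smallest that 100000 resamples give. Ins1 followed Ins2 with r = 0.988 (permutation p = 2e-05, adjusted 2.5e-05) and rho = 0.993 (permutation p = 2e-05, adjusted 5e-05). These pairs are both products of the beta cell.

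Pairs from different cell types were also related. Gcg followed Ins2 with r = 0.903 (permutation p = 6e-05, adjusted 6e-05) and rho = 0.888 (permutation p = 0.00038, adjusted 0.00038). Sst followed Ins2 with r = 0.947 (permutation p = 2e-05, adjusted 2.5e-05) and rho = 0.937 (permutation p = 8e-05, adjusted 0.0001). Ppy followed Gcg with r = 0.976 (permutation p = 2e-05, adjusted 2.5e-05) and rho = 0.958 (permutation p = 4e-05, adjusted 6.67e-05). When AMKO 3 and AMKO 5 were left out, being most distant from the Ins2 median, r was 0.984 for Iapp, 0.981 for Ins1, 0.859 for Gcg and 0.904 for Sst. When AMKO 5 and AMKO 6 were left out, being most distant for Gcg, r was 0.947 for Ppy.

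The relations held within each genotype as well. Over the 6 WT libraries r was 0.990 for Iapp, 0.975 for Ins1, 0.933 for Gcg and 0.896 for Sst with Ins2, and 0.971 for Ppy with Gcg (exact permutation p of 0.00278 to 0.0278). Over the 6 AMKO libraries r was 0.997 for Iapp, 0.995 for Ins1, 0.909 for Gcg and 0.966 for Sst with Ins2, and 0.984 for Ppy with Gcg (exact permutation p of 0.00556 to 0.0194). Over all 45 pairs of members, with each genotype centred on its mean, r ran from 0.677 (Ppy with G6pc2) to 0.992 (Ins2 with Iapp) with a median of 0.946. Both genes of the lowest pair had few counts.

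**Figure D3:**
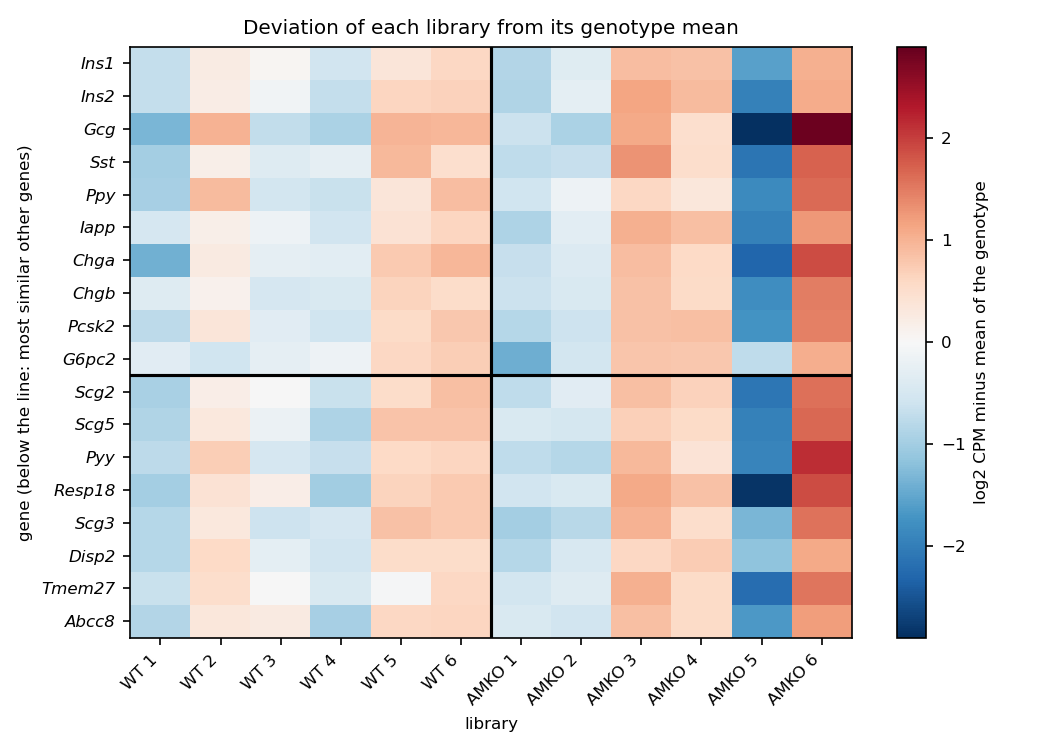
Deviation of each library (columns) from the mean of its genotype in log2 CPM, for the 10 islet genes above the line and the 8 other genes most like their mean below it. AMKO 5 and WT 1 lie below and AMKO 6 above their genotype mean in every row.

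The genes outside the 10 whose pattern was most like the members' mean were found by Pearson r over the 12 libraries, centred within genotype. They were Scg2 (0.989), Scg5 (0.979), Pyy (0.973), Resp18 (0.971), Scg3 (0.968), Disp2 (0.967), Tmem27 (0.960) and Abcc8 (0.958). Scg2, Scg3 and Scg5 encode granins of dense-core granules, Pyy a peptide hormone related to pancreatic polypeptide, and Abcc8 the sulfonylurea receptor of the beta cell potassium channel. Scg2 averaged 15.7 ± 7.10 CPM in WT and 30.5 ± 23.2 CPM in AMKO, with a log2 difference of 0.95 (SE 0.49, adjusted p = 0.274 in edgeR). None of the 8 was called between genotypes.

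Ratios of 2 hormones within a library do not depend on its scaling, and they were compared between genotypes by 2-sided exact permutation tests. The ratio of Gcg to Ins2 counts ran from 0.276 (WT 1) to 0.738 (WT 2) in WT and from 0.311 (AMKO 5) to 2.06 (AMKO 6) in AMKO. AMKO 6 was the one library of the 12 with more glucagon than Ins2 counts, and the other AMKO libraries lay within the WT range. The mean log2 ratio was 0.49 higher in AMKO (exact permutation p = 0.340, Benjamini-Hochberg p over the 4 ratios = 0.453), and 0.14 higher without AMKO 6.

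The other 3 ratios also did not pass. Ins1 to Ins2 had a median of 0.447 in WT and 0.390 in AMKO, a log2 difference of -0.14 (exact permutation p = 0.212, adjusted 0.453). Sst to Ins2 had medians of 0.0224 and 0.0270, a log2 difference of 0.23 (exact permutation p = 0.266, adjusted 0.453). Ppy to Gcg had medians of 0.0257 and 0.0215, a log2 difference of -0.16 (exact permutation p = 0.665, adjusted 0.665), which turned to 0.073 without AMKO 6. The Ppy to Gcg ratio of AMKO 6 was the lowest of the 12 (0.0100) and its Gcg to Ins2 and Sst to Ins2 ratios were the highest, so in that library the alpha and delta hormones stood high relative to insulin.

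**Figure D4:**
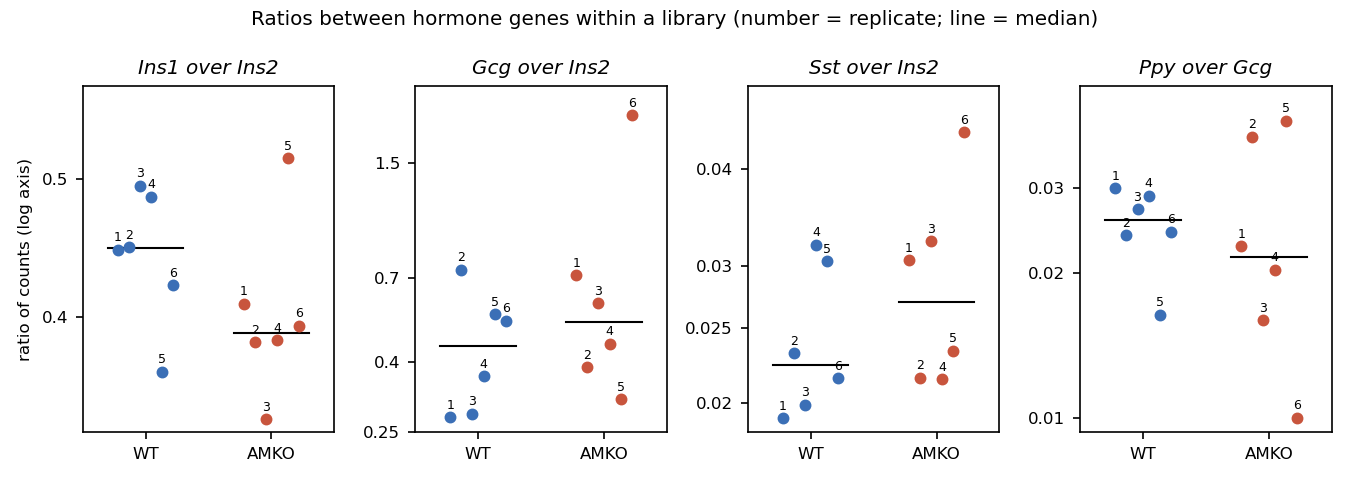
Ratio of counts between 2 hormone genes in each library, on log axes, WT in blue and AMKO in red, with replicate numbers and medians as lines. AMKO 6 has the highest Gcg over Ins2 ratio (2.06) and the lowest Ppy over Gcg ratio (0.0100), and the genotypes overlap in all 4 panels.

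Levels can be compared between genes only per length, here as CPM per kilobase of annotated exon, averaged over the 12 libraries. The length joins all annotated exons of a gene, from 500 bases (Ppy) to 7910 bases (Pcsk2). The transcripts present may be shorter. Ins2 was the highest at 214 ± 121 (SD, n = 12), followed by Gcg at 139 ± 187, Ins1 at 106.7 ± 52.1 and Iapp at 79.9 ± 45.7. A step separated these from the rest, with Chga at 13.3 ± 11.03, Sst at 11.1 ± 8.74 and Ppy at 7.08 ± 5.29. Chgb (2.93 ± 1.85), G6pc2 (2.01 ± 0.995) and Pcsk2 (1.79 ± 1.12) were the lowest. The last place of Pcsk2 in this order rested on its length. In mean CPM it stood above Sst, Ppy, Chgb and G6pc2 in both genotypes. Of the 9 neighbouring pairs in this order, only Iapp and Chga differed by more than the larger of their SDs. The order of Gcg and Ins1 rested on AMKO 6, without which Gcg averaged 87.9 ± 62.6 and Ins1 99.3 ± 47.5 (n = 11). Gcg was below Ins1 in the WT means (81.9 against 100.6) and above it in the AMKO means (196 against 113), and above it in 5 of 12 libraries. By contrast, Ins1 was above Iapp and Iapp above Chga in 12 of 12.

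The wider islet programme was read from 5 textbook lists of further genes, of which 74 were in the table and 56 had enough counts to test. In these, 2 genes were called (3.57%, against 5.78% of all genes tested), 39 had a fitted value above 0 and 17 below, and the median log2 difference was 0.09. Of the 56 genes, 19 followed the members' mean with r above 0.8, as did 0.706% of all genes tested, and the median r was 0.65. The genes of the lists therefore differ in how far they follow the islet hormones, and many of them are also expressed outside islets.

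The beta cell potassium channel, which closes when glucose is metabolised, is built from the products of Abcc8 and Kcnj11, and neither gene was called. Abcc8 averaged 5.62 ± 2.41 CPM in WT and 6.65 ± 4.28 CPM in AMKO (SD, n = 6 each), and Kcnj11 1.81 ± 0.358 CPM and 1.41 ± 0.573 CPM.

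Of the prohormone processing and granule genes outside the 10, 11 were tested and Slc18a1 was called higher. Slc18a1 encodes a vesicular monoamine transporter of endocrine cells. Its mean was 17.5 ± 2.17 CPM in WT and 26.6 ± 4.86 CPM in AMKO, with 5 AMKO libraries above every WT library. The log2 difference was 0.61 (SE 0.13, adjusted p = 0.0128 in edgeR). The call held in all 12 fits that left out 1 library and was lost against WT 4 to 6 alone (adjusted p = 0.122) and WT 1 to 3 alone (0.0899). Slc18a1 overlaps Atp6v1b2 and Gm15716, so its counts are uncertain. Cpe, carboxypeptidase E, which trims the cut hormones, averaged 171 ± 27.2 CPM in WT and 119 ± 31.6 CPM in AMKO (log2 difference -0.52, SE 0.16, adjusted p = 0.0753 in edgeR) and was called by DESeq2 only. It was named after its values were seen, as were Kcnj11 and Pcsk1. Pcsk1, the convertase that starts proinsulin cleavage, had a log2 difference of -0.57 (SE 0.29, adjusted p = 0.267), on the other side of 0 from Pcsk2.

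The lists of transcription factors, exocytosis genes and other islet peptides held no call in the edgeR fit. Of the islet transcription factors, 13 were tested, 0 were called by edgeR, DESeq2 or limma voom, and 0 had an unadjusted p under 0.05. Hhex, a delta cell and duct factor, averaged 9.86 ± 1.61 CPM in WT and 9.99 ± 2.0 CPM in AMKO. Its r with the members' mean was 0.01, against a median r of 0.70 over the tested transcription factors. Mafa and Irx2 had too few counts to test, and Pax4 had 0 counts in every library.

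Of the granule exocytosis genes, 12 were tested and 0 were called, with 3 at an unadjusted p under 0.05 and 1 called by DESeq2 and by limma voom. That gene was Rab27a, a GTPase that docks granules, at 20.6 ± 2.84 CPM in WT and 14.0 ± 3.56 CPM in AMKO (log2 difference -0.55, SE 0.15, adjusted p = 0.0532 in edgeR). It was called without WT 3, without AMKO 1 and without AMKO 5. Its r with the members was -0.65, against a median r of 0.69 over the tested exocytosis genes. Vamp2, the granule SNARE, was at 32.2 ± 2.62 CPM in WT and 37.3 ± 6.43 CPM in AMKO (adjusted p = 0.259). Of the other islet peptides and enriched genes, 10 were tested, with 0 called by edgeR, DESeq2 or limma voom and 0 at an unadjusted p under 0.05. Gast and Dlk1 had 0 counts in every library.

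Markers of other cells were read in the same libraries. Summed CPM of 15 acinar enzyme genes ran from 221330 to 334380 in WT and from 202630 (AMKO 1) to 397780 (AMKO 6) in AMKO. Enzyme transcripts of the exocrine pancreas were therefore abundant in every library. AMKO 6 was thus the highest library for both acinar enzymes and islet genes, while AMKO 5, the lowest for islet genes, had 292170. The sum of 5 B cell markers was 156 CPM in AMKO 1 and 50.5 CPM in AMKO 5, against 0.489 to 20.5 CPM in the other libraries. The 7 macrophage markers summed to 596 CPM in AMKO 5 and 511 CPM in AMKO 1, against 128 to 308 CPM elsewhere. The stellate and fibroblast markers summed to 939 CPM in AMKO 1 and 1053 CPM in AMKO 5, against 499.6 to 548 CPM in the other AMKO libraries and 642 to 1133 CPM in WT. The adipocyte markers summed to 314 CPM in AMKO 1 and 156 CPM in AMKO 5, against 53.7 to 73.3 CPM in the other AMKO libraries and 91.1 to 459 CPM in WT. AMKO 1 and AMKO 5 were also the AMKO libraries with the lowest islet sums. Without both, edgeR called 2115 of 13964 genes tested, against 794 of 13743 in the main fit. Of the 10 islet genes 0 were called and 7 had an unadjusted p under 0.05 in that fit. The share of all genes under that unadjusted p was not counted, so the 7 cannot be read as particular to islet genes. All 10 fitted values were above 0, and the lowest adjusted p was 0.0582 (Iapp, edgeR). AMKO 1 and AMKO 5 were chosen after the values were seen. Leaving out the AMKO libraries with the lowest islet sums by itself raises the AMKO side of the islet genes. The direction and the p-values of that fit are therefore no evidence of a difference between genotypes. The part of B cell, macrophage, stellate or fat cell RNA in the islet result was not tested.

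The 5 neutrophil markers had the lowest sums in AMKO 6 (48.2 CPM), AMKO 3 (48.9 CPM), WT 6 (60.7 CPM) and WT 3 (62.6 CPM), against 155 to 586 CPM in the other 8 libraries. AMKO 6, AMKO 3 and WT 6 were among the 5 libraries with the highest islet sums and WT 3 was not. Over genes of these lists the median r with the islet mean was -0.60 for B cell, -0.62 for macrophage, -0.63 for neutrophil and 0.32 for acinar genes. Their part in the islet values was not tested. No gene of the neutrophil or B cell lists was called between genotypes by edgeR, at adjusted or unadjusted p, nor by DESeq2 or limma voom. Of 7 macrophage genes Mrc1 was called higher.

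**Figure D5:**
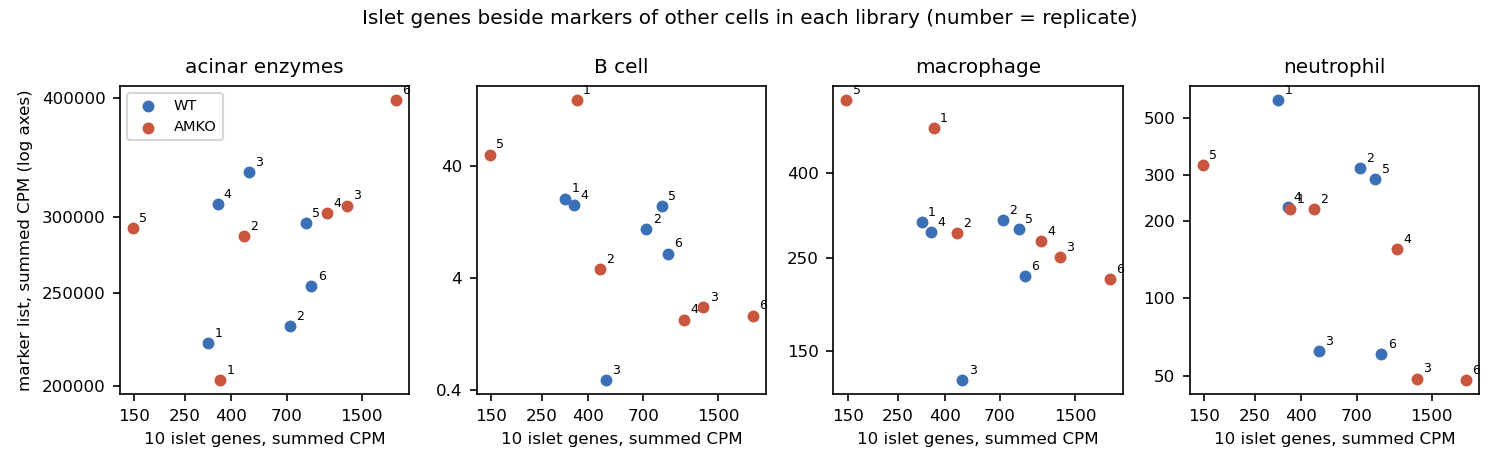
Summed CPM of acinar, B cell, macrophage and neutrophil marker lists (vertical, log axes) against the summed CPM of the 10 islet genes (horizontal, log axis) in each of the 12 libraries, WT in blue and AMKO in red with replicate numbers. AMKO 1 and AMKO 5 have the highest B cell and macrophage sums, and AMKO 6 has the highest islet and acinar sums.

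The other marker lists covered duct, nerve and glia, gut, fat, liver, stellate and endothelial cells. Of 10 duct genes Epcam, Spp1 and Muc1 were called lower in AMKO, and the median r of the list with the islet mean was 0.44. Of 6 stellate and fibroblast genes Pdgfrb was called lower, and of 5 endothelial genes Kdr. No gene was called by edgeR among 5 tested nerve and glia genes, 2 gut genes, 4 adipocyte genes or 8 liver genes, and none of these had an unadjusted p under 0.05. DESeq2 also called 0 of them, and limma voom called 1 nerve and 3 liver genes. The 8 liver markers summed to 3.27 to 12.6 CPM in WT 1 to 3 and 24.5 to 56.7 CPM in WT 4 to 6 and AMKO together. One of them, Ttr, is also an islet gene, followed the islet mean with r of 0.87 and reached 29.9 CPM in AMKO 6. Without Ttr the other 7 markers summed to 1.42 to 2.45 CPM in WT 1 to 3 and 19.9 to 33.6 CPM in the other libraries. Against WT 4 to 6 alone or WT 1 to 3 alone, 0 of the 10 islet genes were called.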

How the data were processed

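Total RNA of whole pancreas was sequenced in 12 samples, with 6 for each genotype that the labels name. The aligner was HISAT2 2.0.4 and the genome build mm10, per the submitters' processing notes. Which counter and annotation were used, and whether strand was, is not stated in the labels. The authors deposited one table of unnormalised read counts, with a row for each gene and a column for each sample.

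The genotypes were compared with the quasi-likelihood F test of edgeR 4.0.16, run in R 4.3.3 on the deposited counts, with TMM scaling, filterByExpr and genotype as the only term. P-values were adjusted over all 13743 genes tested (Benjamini-Hochberg, threshold 0.05). Log2 CPM used a prior count of 2. Hormone ratios had 0.5 added to each count and were tested by exact permutation, and correlations by 100000 resamples (SciPy 1.17.1, Python 3.11.15). Copies were sought with BLAST 2.17.0. The fit was tested on simulated data.

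Pairs of libraries of one genotype differed by more than counting error (chi-square of 9.93 to 73.3 for each degree of freedom). None was therefore counted as a repeated sequencing of the same library. This cannot tell separate animals from separate pieces or preparations of one animal. Intervals of counts cover these libraries only, and genes of few counts are less precise. The members and the 17 gene lists were chosen with earlier results of these data known, so no list was adjusted alone. Named genes were all 10 members, up to 4 called genes of each other list or else its 2 most abundant, and the 8 genes most like the members. Some genes that this rule takes are not reported here. The alternatives tried were scaling by RLE, by the upper quartile or by total counts, TMM without the 50 most counted genes, other count filters, DESeq2 1.42.0, limma 3.58.1 voom, a replicate block, each library left out, WT 4 to 6 or WT 1 to 3 alone, another added or prior count, and centring within genotype.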

Additional observations from a re-analysis of the deposited data

Results flagged for a closer look

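The level of Gcg in AMKO 6 was 1047 CPM, far from the other 5 AMKO libraries, which ran from 19.5 to 314 CPM. Its gap to the nearest library was 0.713 of the range of the 6 AMKO libraries, above Dixon's 95% critical value of 0.625. On the log2 scale the gap was 0.343 of the range, below that value. The search covered 28 groups of 6 libraries, 1 was found, and chance alone marks about 1 in 20 groups. AMKO 6 was also the highest library for 7 of the other 9 islet genes.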

How the results depend on the processing

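No islet gene of the 10 was called in any of the 24 alternatives. Sst, Ppy, Iapp, Chga, Chgb, Pcsk2, Ins2 and Gcg kept a fitted value above 0 in all 24. Ins1 turned to -0.029 with the replicate block and ran from -0.039 (without AMKO 6) to 0.377 (without AMKO 5) with 1 library left out. G6pc2 turned to 0.26 against WT 1 to 3 alone and to 0.20 without AMKO 1 and AMKO 5 together. The latter alternative was chosen after seeing the data and drops the AMKO libraries with the lowest islet sums. The cause was not tested. Called genes over the whole table numbered 794 in the main comparison, 456 with total count scaling, 1302 in DESeq2, 1664 in limma voom, 167 against WT 4 to 6, 231 against WT 1 to 3, 2115 without AMKO 1 and AMKO 5, and 411 to 1140 with 1 library left out. The other islet genes called numbered 2 in the main comparison, 4 in DESeq2 (Cpe and Rab27a added), 1 against WT 4 to 6, 0 against WT 1 to 3 (fewer samples in both), 6 without AMKO 1 and AMKO 5 (Ero1lb, Resp18, Scg2 and Rab27a added), and 2 to 4 with 1 library left out (4 without WT 3). The alternatives that ended the call of Slc18a1 are given with its values. The log2 difference of the Ppy to Gcg ratio ran from -0.35 to 0.073 with 1 library left out, the latter without AMKO 6. No hormone ratio passed in any alternative, and the 5 correlations kept their calls (r 0.864 to 0.994). Same-numbered libraries correlated at -0.16 to 0.346 and 3 of 12 libraries correlated best with their own number. The labels do not say whether same numbers mark paired samples, and these correlations cannot decide it. With the replicate block 910 genes, 0 islet members and 3 other islet genes were called, and the ratios had adjusted p of 0.542 to 0.719. Genes with few counts, such as Ppy and G6pc2, limit what differences could be seen.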
